A study of Rattus norvegicus with 20 samples.

Results

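Lipogenesis in rat liver was followed here through 10 genes: Thrsp, Mlxipl and Srebf1, which regulate the pathway, and Acly, Me1, Acaca, Fasn, Scd, Elovl6 and Gpam, which carry it out. They were chosen by symbol, as every ProbeSet that the RAE230A array annotation assigns to 1 of these 10 genes, and this gave 16 ProbeSets of 15923 on the array, or 10 of the 10412 genes with a single symbol. The livers of 20 male rats, 4 per strain or line, were each hybridised to 1 Affymetrix RAE230A array. The purpose of the study was to describe how far basal hepatic mRNA levels vary within and between rat strains.

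The groups were Sprague-Dawley (S-D, out-bred, wild-type Ahr), in-bred Long-Evans (Turku/AB) with wild-type Ahr (L-E) and Han/Wistar (Kuopio) (H/W, a random-bred closed colony with a variant Ahr). Line-A and Line-C descend from crosses of L-E with H/W, and Line-A carries the variant Ahr whereas Line-C carries the wild-type allele. Ahr encodes the aryl hydrocarbon receptor, a ligand-activated transcription factor. All rats were 10 to 12 weeks old and were untreated apart from a gavage of corn oil, given 19 hours before the liver was taken, although the S-D labels say only that they are controls. The lines stand for the 2 Ahr alleles in a mixed background, so the allele and other loci that differ between the lines cannot be told apart.

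The liver makes fatty acids from surplus carbohydrate. Citrate exported from mitochondria is cleaved to acetyl-CoA by Acly (ATP citrate lyase), Acaca (acetyl-CoA carboxylase alpha) turns this into malonyl-CoA, and Fasn (fatty acid synthase) builds palmitate with NADPH that Me1 (malic enzyme) helps to supply. Scd (stearoyl-CoA desaturase) and Elovl6 (a fatty acid elongase) modify the product, and Gpam (mitochondrial glycerol-3-phosphate acyltransferase) commits acyl-CoA to triglyceride. Mlxipl encodes ChREBP, the transcription factor that responds to glucose metabolites, and Srebf1 encodes the sterol regulatory element-binding protein that mediates the effect of insulin, while Thrsp encodes a small acidic protein that is induced by thyroid hormone, carbohydrate feeding and insulin and promotes fatty acid synthesis.

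RefSeq start regions (GRCr8, 250 bases before and 50 after each start) were at hand for 7 of the 10 genes and not for Acaca, Fasn and Elovl6. The 250 bases before the start are printed here for both regulators to which the enzymes were related, Thrsp and Mlxipl, and for Acly, the enzyme gene whose signal followed Thrsp most closely from rat to rat. They lie at chr1:161138965-161139214 (Thrsp), chr12:27213661-27213910 (Mlxipl) and chr10:85963632-85963881 (Acly), all on the minus strand, and capitals mark CCAAT, the NF-Y box, on either strand.
Thrsp: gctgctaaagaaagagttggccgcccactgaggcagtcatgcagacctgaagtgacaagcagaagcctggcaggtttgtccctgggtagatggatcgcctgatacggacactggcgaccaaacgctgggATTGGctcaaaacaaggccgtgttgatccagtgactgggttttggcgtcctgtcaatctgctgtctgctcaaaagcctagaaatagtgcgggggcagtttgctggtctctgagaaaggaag
Mlxipl: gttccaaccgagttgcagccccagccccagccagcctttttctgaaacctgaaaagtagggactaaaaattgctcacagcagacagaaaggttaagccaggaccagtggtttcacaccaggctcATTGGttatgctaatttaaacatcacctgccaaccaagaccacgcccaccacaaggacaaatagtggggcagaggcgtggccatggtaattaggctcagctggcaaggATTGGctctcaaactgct
Acly: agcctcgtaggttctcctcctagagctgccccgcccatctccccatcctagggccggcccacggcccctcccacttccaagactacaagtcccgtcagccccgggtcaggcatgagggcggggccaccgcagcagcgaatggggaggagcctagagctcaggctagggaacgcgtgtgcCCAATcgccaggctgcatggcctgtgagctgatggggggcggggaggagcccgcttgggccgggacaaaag

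CCAAT was searched on both strands and occurred in 5 of the 7 regions of 300 bases (Thrsp, Mlxipl, Srebf1, Acly and Gpam), and 37.7% of the regions of all 27457 genes in the table held it. In Thrsp it began 121 bases before the start, in Acly 71 bases before it, and Mlxipl had it at 126 and at 18 bases before the start. The GC box GGGCGG occurred in 4 of 7 (Thrsp, Srebf1, Acly and Me1; 34.9% of all genes). The E-box CACGTG, the sterol regulatory element TCACNCCAC and the TATA box TATAAA occurred in 0 of 7, against 6.65%, 1.13% and 14.3% of all genes. None of these motifs contains another, and a match or its absence describes these windows only.

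The arrays measured Thrsp, Me1, Acaca, Fasn and Srebf1 with more than 1 ProbeSet, and the one with the highest mean signal represents the gene where genes are counted. Signals are log2 values per ProbeSet and are not compared between ProbeSets. A mean of at least 4, the limit of expression used in the study, was reached by 14 of the 16 ProbeSets and by 7168 of all 15923, and the exceptions were Elovl6 and Acaca 1387538_at. Hepatocyte markers were high in all groups (albumin, mean log2 signal 16.58 to 16.69), and of the adipocyte markers 4 were on the array and 0 reached a mean of 4 over all 20 rats, although Cfd had group means of 4.09 in S-D and 4.23 in L-E. Array medians lay between 3.47 and 3.69. The S-D arrays had a scan day and an operator of their own, all arrays of both lines shared another day, and the L-E and H/W arrays fell on the remaining days, 2 of which held both strains, so scan day and strain cannot be told apart for any comparison of S-D, or of a line with L-E or H/W. In such bulk liver RNA, fewer cells of a type and less RNA per cell cannot be told apart.

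Thrsp was highest in Line-A and lowest in S-D. Its log2 signal (ProbeSet 1370150_a_at) was 13.40, 14.06, 13.92 and 13.82 in the 4 Line-A rats and 11.67, 12.32, 11.82 and 10.76 in the Line-C rats. The L-E rats had 11.96, 11.89, 12.29 and 13.81, the H/W rats 13.03, 12.19, 12.58 and 11.93, and the S-D rats 10.83, 11.62, 11.42 and 10.75. Every Line-A rat was above every Line-C, H/W and S-D rat, while 1 L-E rat, replicate 4, reached the Line-A range. The order of the means was Line-A (13.80 ± 0.28, SD, n = 4), L-E (12.49 ± 0.90), H/W (12.43 ± 0.48), Line-C (11.64 ± 0.65) and S-D (11.15 ± 0.43). Of the neighbours in this order, only Line-A and L-E differed past the 5% FDR, and that call was lost without L-E replicate 1, 2 or 3 or Line-A replicate 2 or 4 (adjusted p of up to 0.0879) and with scan day as a random block (adjusted p = 0.137).

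Mlxipl had another order. Its log2 signal (1368614_at) was 9.01, 9.01, 9.48 and 9.63 in L-E and 8.52, 8.97, 8.21 and 7.68 in H/W. The Line-A rats had 7.82, 8.14, 7.98 and 7.69, the Line-C rats 7.49, 7.62, 7.55 and 7.42, and the S-D rats 6.96, 7.53, 7.42 and 6.93. All L-E rats lay above all others, and the Line-C rats overlapped only with S-D. The means ran from L-E (9.28 ± 0.32, SD, n = 4) through H/W (8.35 ± 0.54), Line-A (7.91 ± 0.19) and Line-C (7.52 ± 0.09) to S-D (7.21 ± 0.31), and of these neighbours only L-E and H/W differed past the 5% FDR. Line-A, with the highest Thrsp signal, was thus 1.38 ± 0.22 (log2, SE) lower than L-E in Mlxipl (2.6-fold, limma, adjusted p = 8.42e-04) and 1.31 ± 0.40 higher in Thrsp (2.48-fold, adjusted p = 0.0297).

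**Figure D1:**
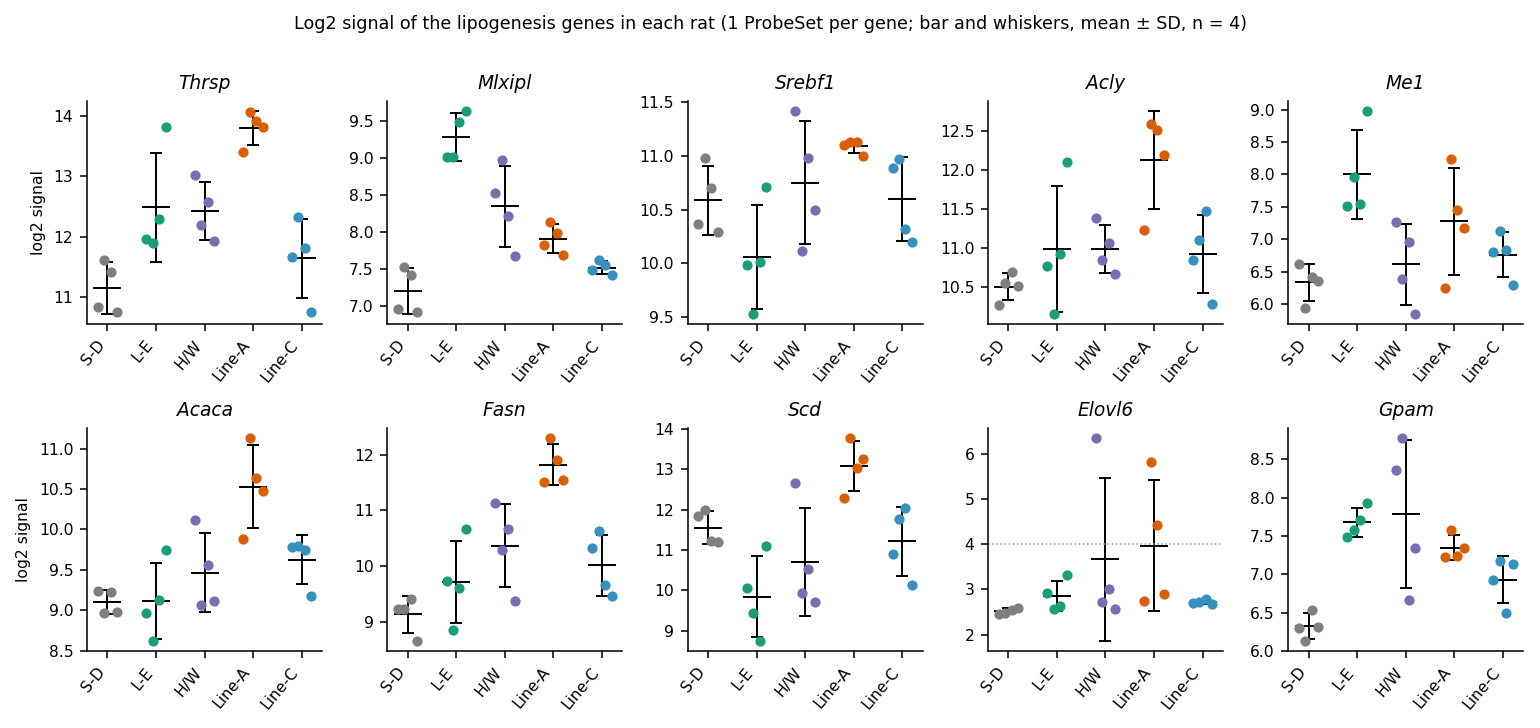
Log2 signal of the 10 lipogenesis genes (1 ProbeSet per gene) in each of 20 rats by strain or line, with points for rats and a bar with whiskers for mean ± SD, n = 4, and a dotted line at the expression limit of 4 in the Elovl6 panel. Thrsp, Srebf1, Acly, Acaca, Fasn, Scd and Elovl6 had their highest mean in Line-A, Mlxipl and Me1 in L-E, and Gpam in H/W.

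**Figure D2:**
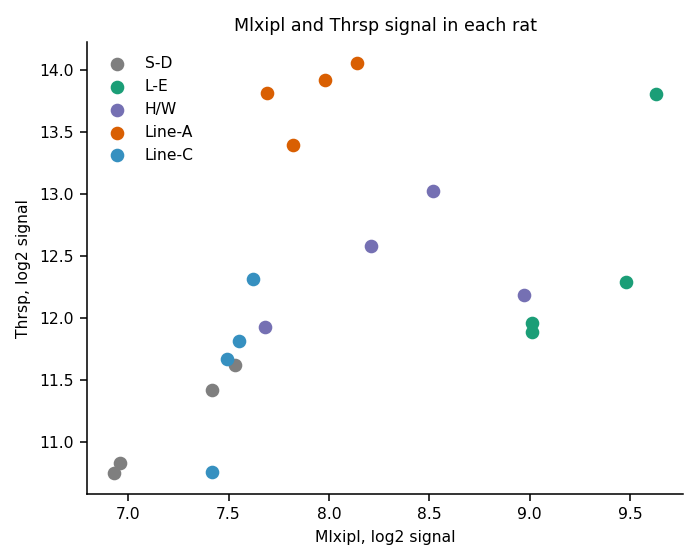
Log2 signal of Mlxipl (x axis) and Thrsp (y axis) in each of the 20 rats, coloured by strain or line. The 4 Line-A rats lie at 13.40 to 14.06 in Thrsp and at 7.69 to 8.14 in Mlxipl, and the 4 L-E rats at 11.89 to 13.81 and at 9.01 to 9.63.

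The enzymes of synthesis and desaturation were ordered with Line-A first, as Thrsp was. Fasn (1367708_a_at) was at 11.52, 12.30, 11.91 and 11.54 in Line-A and at 10.32, 10.63, 9.66 and 9.46 in Line-C, and these groups did not overlap. The other strains had 11.13, 10.30, 10.67 and 9.37 (H/W), 9.74, 8.86, 9.61 and 10.66 (L-E) and 9.23, 9.23, 9.42 and 8.66 (S-D), all below the Line-A rats. With the second Fasn ProbeSet, 1367707_at, H/W replicate 1 (11.01) exceeded Line-A replicates 1 and 4 (10.89 and 10.97). Scd was at 12.28, 13.77, 13.04 and 13.24 in Line-A, at 10.91, 11.77, 12.03 and 10.14 in Line-C and at 11.84, 11.98, 11.21 and 11.19 in S-D. L-E (10.06, 9.45, 8.75 and 11.11) had the lowest Scd mean, and the H/W rats (12.65, 9.93, 10.53 and 9.72) included 1, replicate 1, within the Line-A range.

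Acly was at 11.23, 12.59, 12.52 and 12.19 in Line-A against means of 10.51 to 10.99 in the other groups, and L-E replicate 4, at 12.10, Line-C replicate 3, at 11.47, and H/W replicate 1, at 11.39, exceeded the lowest Line-A rat. The other Acly signals were 10.27, 10.55, 10.69 and 10.52 (S-D), 10.77, 10.16, 10.92 and 12.10 (L-E), 11.39, 10.85, 11.06 and 10.67 (H/W) and 10.85, 11.11, 11.47 and 10.28 (Line-C). Acaca (1370893_at) was at 9.88, 11.13, 10.63 and 10.48 in Line-A and had means of 9.10 in S-D, 9.11 in L-E, 9.46 in H/W and 9.62 in Line-C. The Line-A rats were above every S-D, L-E and Line-C rat, and H/W replicate 1, at 10.12, was above the lowest of them. In the other groups Acaca was at 9.24, 8.97, 9.22 and 8.98 (S-D), 8.96, 8.62, 9.13 and 9.74 (L-E), 10.12, 9.07, 9.56 and 9.11 (H/W) and 9.78, 9.79, 9.75 and 9.17 (Line-C). The second Acaca ProbeSet, 1387538_at, reached 4 in L-E replicate 4 (4.18) and Line-A replicate 2 (4.51) and in no other rat, so it gives no level for the rest.

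Gpam did not follow this order, and the ProbeSets of Me1 differed in it. Me1 (1370067_at) was at 7.51, 7.96, 7.55 and 8.98 in L-E, above every S-D rat (6.62, 5.94, 6.41 and 6.36), and at 6.24, 8.24, 7.45 and 7.18 in Line-A, which overlapped with both. H/W (7.27, 6.38, 6.95 and 5.85) and Line-C (6.80, 7.12, 6.83 and 6.29) had means of 6.61 and 6.76. The second Me1 ProbeSet, 1370870_at, was at 6.45, 6.81, 6.80 and 8.60 in L-E, at 5.34, 8.09, 7.90 and 7.97 in Line-A and at 5.21, 4.30, 4.68 and 4.02 in S-D, so with it both L-E and Line-A lay above S-D. Its mean was highest in Line-A (7.33 ± 1.33, SD), ahead of L-E (7.17), Line-C (6.24), H/W (5.24) and S-D (4.55), and Line-A replicate 1 lay below all L-E rats. Gpam was at 6.30, 6.13, 6.54 and 6.31 in S-D, at 7.49, 7.58, 7.71 and 7.93 in L-E and at 8.36, 8.78, 6.66 and 7.35 in H/W, so that S-D lay below all L-E and H/W rats and H/W was the most spread. Gpam in Line-A (7.22, 7.58, 7.24 and 7.35) was above every S-D rat, and 3 of the 4 Line-C rats (6.92, 7.17, 6.50 and 7.13) were. Srebf1 (1388426_at) had means of 11.09 in Line-A, 10.75 in H/W, 10.59 in Line-C, 10.58 in S-D and 10.06 in L-E. Its second ProbeSet, 1371104_at, had another order, with 9.54 in H/W, 9.43 in S-D, 9.29 in Line-A, 9.06 in L-E and 8.91 in Line-C. Elovl6 was under 4 in all rats but H/W replicate 1 (6.35) and Line-A replicates 2 and 3 (5.81 and 4.43).

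By limma's F-test among the 5 groups at 0.1% FDR, 1 of the 16 ProbeSets was called, that of Mlxipl (adjusted p = 4.58e-05), against 4.60% of all ProbeSets, and 12 of 16 passed at 5% FDR, against 30.5% of all. With scan day as a random block 0 passed at 0.1% FDR, and the share of all ProbeSets was not counted there. Without L-E replicate 4 the number at 0.1% FDR was 5, and it was 3 without H/W replicate 4 and 2 without H/W replicate 1 or 3. The spread within groups was wide for most of these genes. The within-group SD was 0.59 for Thrsp, and 2.08% of expressed ProbeSets had a larger one. It was 0.90 for Scd (0.530% larger), 0.57 for Fasn (2.30%), 0.53 for Acly (2.79%) and 0.33 for Mlxipl (13.0%).

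The contrast of the lines asks how the variant and the wild-type Ahr groups differ in a mixed L-E and H/W background, and here all 8 arrays shared 1 scan day and 1 chip lot. Line-A exceeded Line-C in Thrsp by 2.16 ± 0.40 (log2, SE) and in Fasn by 1.80 ± 0.39, which are 4.47-fold and 3.49-fold (limma, adjusted p = 0.010 and 0.0292). All 16 ProbeSets had a higher mean in Line-A, 8 had an unadjusted p under 0.05 and 5 were called, all 3 of Thrsp and both of Fasn, against 0.754% of all ProbeSets in this direction. The differences of Scd (1.87 ± 0.61, adjusted p = 0.208), Acly (1.20 ± 0.36, adjusted p = 0.151) and Acaca (0.91 ± 0.28, adjusted p = 0.158) did not pass, nor did Mlxipl at 0.39 ± 0.22 (adjusted p = 0.760). The median difference of the 16 ProbeSets was 1.15, and that of all ProbeSets 0.01. Without any 1 rat the adjusted p of Thrsp lay between 0.00126 and 0.0372, while Fasn was no longer called without Line-A replicate 2, 3 or 4 or Line-C replicate 3 or 4, with an adjusted p of up to 0.10, and in each of these the number of called ProbeSets was 3. With only the 8 arrays of the lines, Thrsp passed, Fasn 1367708_a_at did not (adjusted p = 0.0535) and 4 ProbeSets were called, and with a replicate block the adjusted p of that Fasn ProbeSet was 0.0532.

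Against the parental strains the differences of Line-A were as follows. Line-A exceeded L-E in 9 of 16 ProbeSets (20.9% of all ProbeSets were called in this direction), by 3.24 ± 0.61 (log2, SE) in Scd (9.43-fold, adjusted p = 0.00256), 2.1 ± 0.39 in Fasn (4.29-fold, adjusted p = 0.00217), 1.42 ± 0.28 in Acaca (adjusted p = 0.00319), 1.14 ± 0.36 in Acly (adjusted p = 0.0341) and 1.03 ± 0.28 in Srebf1 1388426_at (adjusted p = 0.0188), besides Thrsp, while Srebf1 1371104_at did not pass (0.23 ± 0.30, adjusted p = 0.545). The call of Acly was lost without L-E replicate 1, 2 or 3 or Line-A replicate 2, 3 or 4 (adjusted p of up to 0.104), and that of Srebf1 without L-E replicate 2. The 1 ProbeSet lower in Line-A than in L-E was that of Mlxipl (6.61% of all). Line-A exceeded H/W in 5 of 16 (3.30% of all), namely 2 of Thrsp, Acaca (1.06 ± 0.28, adjusted p = 0.0294), Fasn 1367708_a_at (1.45 ± 0.39, adjusted p = 0.0339) and Scd (2.38 ± 0.61, adjusted p = 0.0272). Against H/W, Thrsp 1370150_a_at (1.37 ± 0.40, adjusted p = 0.0518) and Fasn 1367707_at (1.36 ± 0.46, adjusted p = 0.101) did not pass by limma. Without L-E replicate 2 the calls against L-E in both directions went from 10 to 5, and the number against H/W was 0 without H/W replicate 2 or 4 or Line-A replicate 2 or 3, 1 without Line-A replicate 4 and 2 without H/W replicate 3. With scan day as a random block, 5 were called against L-E, namely Mlxipl, Acaca, both ProbeSets of Fasn and Scd, and 0 against H/W (limma, 9 had an unadjusted p under 0.05), where the adjusted p was 0.140 for Fasn and for Acaca and 0.124 for Scd. The share of all ProbeSets called in either direction was then 4.33% against L-E and 2.52% against H/W, and the share with an unadjusted p under 0.05 was not counted.

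These 5 ProbeSets were also the ones of Line-A above both parental strains: Thrsp 1371400_at and 1387852_at, Acaca 1370893_at, Fasn 1367708_a_at and Scd, with 2.01% of all ProbeSets in that class. Leaving out 1 rat changed this number to between 0 and 7, with 0 without H/W replicate 2 or 4 or Line-A replicate 2 or 3, 1 without Line-A replicate 4, 2 without H/W replicate 3 and 3 without L-E replicate 2. Line-C was below both parents in 1 ProbeSet, Mlxipl (1.10% of all), by 1.76 ± 0.22 against L-E (adjusted p = 1.40e-04) and by 0.83 ± 0.22 against H/W (adjusted p = 0.0486), and the second of these was kept only without L-E replicate 4 or H/W replicate 4, out of 20 fits that each left out 1 rat. With scan day as a random block, 0 lipogenesis ProbeSets were left in either class, and the share of all ProbeSets was not counted there.

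Markers of macrophages moved with these comparisons. Among all expressed ProbeSets, 32.1%, 29.7%, 13.4% and 2.89% were called in either direction for Line-A against S-D, L-E, H/W and Line-C. All 4 expressed Kupffer cell and macrophage markers (C1qa, Csf1r, Cd68 and Clec4f) were lower in Line-A than in S-D and in L-E, 1 of 4 (C1qa) was lower than in Line-C, and 0 of 4 were called against H/W (limma, 5% FDR; 2 had an unadjusted p under 0.05). Their summed log2 signal was 28.14 to 28.78 in Line-A, 29.50 to 30.94 in Line-C, 29.29 to 30.14 in H/W, 30.24 to 33.11 in L-E and 31.51 to 33.11 in S-D, and their part in the results was not tested. Of the 5 expressed hepatocyte markers 1, 2, 2 and 0 were higher in Line-A than in S-D, L-E, H/W and Line-C, and they summed to 75.47 to 75.86 in the lines and 74.22 to 75.34 in the strains.

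**Figure D3:**
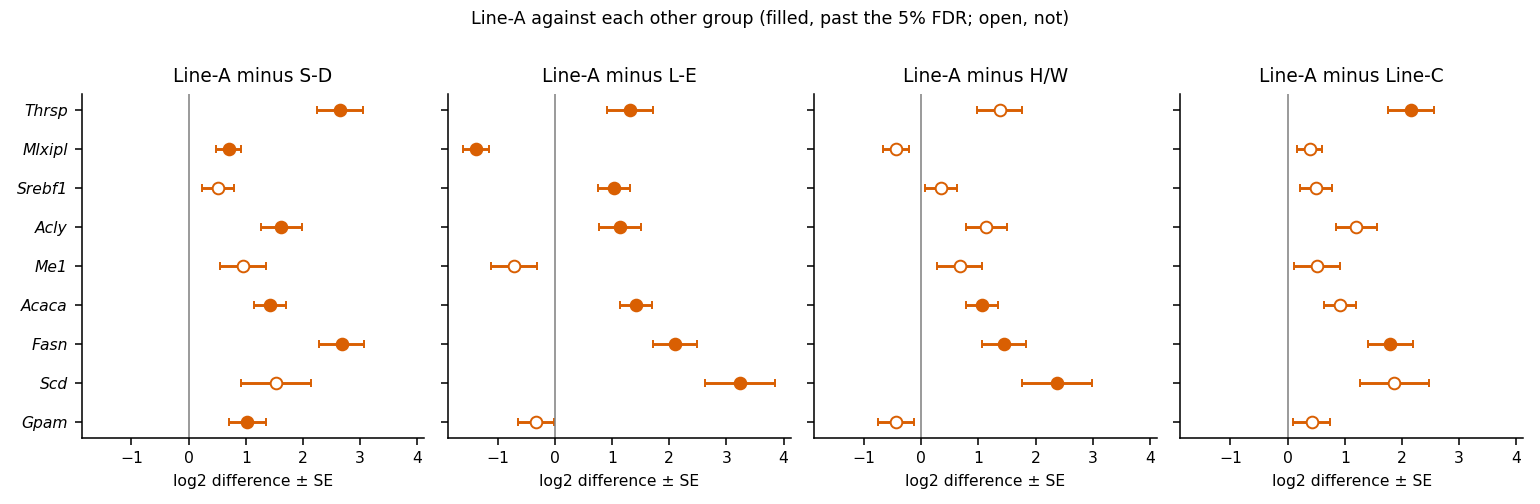
Log2 difference ± SE (x axis, limma, 4 rats per group) of Line-A from S-D, L-E, H/W and Line-C for 9 lipogenesis genes (y axis; Elovl6 is left out as it was mostly under the expression limit), with filled points past the 5% FDR and open points not. Thrsp, Srebf1, Acly, Acaca, Fasn and Scd lie right of 0 in every panel, and Mlxipl lies at -1.38 against L-E and at 0.70 against S-D.

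S-D had the lowest mean of Thrsp, Mlxipl, Acly, Me1, Acaca, Fasn and Gpam among the 5 groups. Line-A exceeded S-D in 10 of 16 ProbeSets (29.3% of all), by 2.65 ± 0.40 (log2, SE) in Thrsp (6.27-fold, adjusted p = 2.88e-04), 2.68 ± 0.39 in Fasn (6.42-fold, adjusted p = 1.96e-04), 1.62 ± 0.36 in Acly (adjusted p = 0.00649) and 1.43 ± 0.28 in Acaca (adjusted p = 0.00250). Gpam (1.03 ± 0.32, adjusted p = 0.0320), Mlxipl (0.70 ± 0.22, adjusted p = 0.0346) and 1370870_at of Me1 (2.77 ± 0.66, adjusted p = 0.00989) were called as well. The call of Gpam was lost without any 1 of the S-D rats or Line-A replicate 1, 2 or 4 (adjusted p of up to 0.0781), and that of Mlxipl without S-D replicate 1, 3 or 4 or Line-A replicate 1, 2 or 4 (up to 0.0813). Equal array medians also ended both (adjusted p = 0.0553 for Gpam and 0.0903 for Mlxipl). L-E exceeded S-D in 5 of 16 (4.04% of all): Mlxipl by 2.07 ± 0.22 (4.21-fold, adjusted p = 1.27e-05), both ProbeSets of Me1, with 1.67 ± 0.40 for 1370067_at (adjusted p = 0.0126), Gpam by 1.36 ± 0.32 (adjusted p = 0.0111) and Thrsp 1370150_a_at by 1.34 ± 0.40 (adjusted p = 0.0439), while the other ProbeSets of Thrsp did not pass (1.08 for 1371400_at, adjusted p = 0.117, and 1.24 for 1387852_at, adjusted p = 0.0709). H/W exceeded S-D in 2 of 16 (2.38% of all), Mlxipl by 1.14 ± 0.22 (adjusted p = 0.00441) and Gpam by 1.47 ± 0.32 (adjusted p = 0.00918). Between Line-C and S-D 0 of 16 were called (limma, 5% FDR, against 12.2% of all ProbeSets in either direction), 2 had an unadjusted p under 0.05, and 2 were called without H/W replicate 3. Between S-D and Line-A 32.1% of all expressed ProbeSets were called in either direction, and between S-D and L-E 18.5%. All 3 expressed stellate cell markers (Col1a1, Col3a1 and Lrat) had higher signals in S-D, against both Line-A and L-E. The summed log2 signal of the 5 on the array was 25.71 to 29.68 in S-D, 20.71 to 22.74 in L-E, 22.67 to 24.17 in H/W, 23.21 to 23.65 in Line-A and 23.45 to 25.64 in Line-C, and their part in the results was not tested. Without S-D replicate 4 the number for L-E against S-D was 3, and that for H/W against S-D was 5 without L-E replicate 4 or H/W replicate 3 and 4 without H/W replicate 4. With scan day as a random block, Line-A exceeded S-D in 6 ProbeSets, all 3 of Thrsp, both of Fasn and Acaca, and no longer in Acly (adjusted p = 0.0748), Gpam or Mlxipl (0.162 each). L-E and H/W each exceeded S-D in 1, Mlxipl, and no longer in Me1 (adjusted p = 0.0997, L-E) or Gpam (0.0819 for L-E and 0.0597 for H/W). The share of all ProbeSets called in either direction was then 4.54% for Line-A, 4.52% for L-E and 3.01% for H/W against S-D. The log2 difference between 3' and 5' GAPDH probes, a measure of RNA integrity, was 0.54 to 0.58 in S-D, 0.23 to 0.34 in L-E and 0.17 to 0.42 in Line-A, with no overlap of S-D and either group, and 0.33 to 0.81 in H/W and 0.38 to 0.50 in Line-C. The same difference for beta-actin was 1.92 to 2.1 in S-D and 1.85 to 2.12 in Line-A, which overlapped. It was 1.65 to 1.89 in L-E, below S-D, 1.88 to 2.24 in H/W and 1.89 to 2.26 in Line-C. The part of either measure in the results was not tested.

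Between the parental strains only Mlxipl passed the 5% FDR. L-E exceeded H/W by 0.94 ± 0.22 in Mlxipl (1.92-fold, adjusted p = 0.0276), 1 of 16 ProbeSets against 1.78% of all. Thrsp differed by 0.06 ± 0.40 (log2, SE) between L-E and H/W (adjusted p = 0.927) and Fasn by -0.65 ± 0.39 (adjusted p = 0.342), while Me1, at 1.39 ± 0.40 (adjusted p = 0.0716), did not pass although the 4 rats of each strain did not overlap. L-E and H/W shared 2 scan days, and the Mlxipl difference was 0.78 on the day with 3 L-E and 2 H/W rats (adjusted p = 0.738) and 0.50 on the day with 1 rat of each, which allows no test. With scan day as a fixed block over the 8 arrays the Mlxipl difference was 0.70 (adjusted p = 0.413). With scan day as a random block over the arrays of all groups it was 0.88 and still called (limma, adjusted p = 0.0315). Without a block, the call was lost without L-E replicate 3 or 4 or H/W replicate 4. The number of called ProbeSets was 3 without H/W replicate 3 and 2 without Line-A replicate 1. L-E exceeded Line-C in 2 of 16 (4.84% of all), Mlxipl by 1.76 ± 0.22 and Me1 by 1.24 ± 0.40 (adjusted p = 0.0476), and the call of Me1 was lost with scan day as a random block (adjusted p = 0.224) and without any 1 of the S-D, L-E or Line-C rats, H/W replicate 2 or Line-A replicate 3. H/W exceeded Line-C in 1 of 16, Mlxipl (1.75% of all), and in 0 with scan day as a random block (limma, adjusted p = 0.208 for Mlxipl, and 2 had an unadjusted p under 0.05).

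The study's genetic model asks for an Ahr term across all 5 groups. Its coefficient passed the 5% FDR for 3 of 16 ProbeSets, the 3 of Thrsp (2.16 ± 0.40 for 1370150_a_at, adjusted p = 0.0135), against 0.659% of all. By the construction of that model, with equal parental shares in both lines, the coefficient equals the difference between Line-A and Line-C, so it adds no second measurement. The same contrast in the parents, H/W against L-E, was -0.06 for Thrsp 1370150_a_at. The difference of both contrasts was -2.22 ± 0.56 for that ProbeSet (adjusted p = 0.0547), -2.1 ± 0.57 for 1371400_at (adjusted p = 0.0727) and -2.43 ± 0.58 for 1387852_at (adjusted p = 0.0369). With Mlxipl (-0.94 in the parents, 0.39 in the lines, difference -1.33, adjusted p = 0.0369), 2 of 16 were called against 2.01% of all. Without 1 rat, the coefficient was called for 0 ProbeSets without Line-A replicate 3 or Line-C replicate 4 and for 1 without Line-A replicate 2, and the difference of contrasts for 0 without L-E replicate 3, Line-A replicate 2 or 3 or Line-C replicate 1, 3 or 4 and for 1 without L-E replicate 4, H/W replicate 2, 3 or 4 or Line-A replicate 4.

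Within 4 of the 5 groups, 1 rat was the highest or the lowest of its group in most of the genes. L-E replicate 4 had the highest signal of its strain in 10 of the 10 genes, Line-A replicate 2 in 9, H/W replicate 1 in 8 and Line-C replicate 2 in 7. Line-C replicate 4 was the lowest of its line in 9 genes, Line-A replicate 1 in 8, and L-E replicate 2 and H/W replicate 4 in 7 each. S-D had no such rat, the highest count being 5 lowest genes in replicate 4. The exceptions in H/W were Mlxipl and Gpam, both highest in replicate 2.

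To relate Thrsp and Mlxipl to the enzymes, each rat's log2 signal was taken as its deviation from the mean of its own strain or line, since the strains form separate clusters. Over 20 rats, Thrsp deviations correlated with those of Acly (Pearson's r = 0.85, permutation test within strains, adjusted p over 17 relations = 0.00113, Spearman's rho = 0.85, adjusted p = 5.95e-04) and Fasn (r = 0.82, adjusted p = 0.00113, rho = 0.83, adjusted p = 5.95e-04). The same held for Srebf1 (r = 0.82, permutation p = 0.00136 adjusted, rho = 0.81, adjusted p = 0.00268), Acaca (r = 0.78, adjusted p = 0.00113, rho = 0.78, adjusted p = 0.00268), Scd (r = 0.75, adjusted p = 0.00275, rho = 0.72, adjusted p = 0.00554) and Me1 (r = 0.70, adjusted p = 0.00362, rho = 0.73, adjusted p = 0.00422). Elovl6 also passed (r = 0.44, adjusted p = 0.00197, rho = 0.51, adjusted p = 0.0224), although most of its values were under the expression limit. Gpam did not (r = 0.15, adjusted p = 0.550, rho = 0.35, adjusted p = 0.196). The raw permutation p-values of the 7 relations that passed lay between 8.00e-05 and 0.00149 for r.

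Without the rats farthest from the median in Thrsp, L-E replicate 4 and Line-C replicate 4, r was 0.74 for Acly, 0.77 for Fasn, 0.76 for Srebf1, 0.71 for Acaca, 0.66 for Scd, 0.59 for Me1, 0.53 for Elovl6 and 0.15 for Gpam. For comparison, of the 7167 other ProbeSets with a mean signal of at least 4, 6.35% had r of at least 0.5 with Thrsp and 0.795% had r of at least 0.7, and of the 7 enzymes 5 reached 0.7. Over all ProbeSets of Thrsp and of the other gene, r lay between 0.82 and 0.85 for Fasn, 0.84 and 0.85 for Acly, 0.66 and 0.85 for Acaca and 0.68 and 0.75 for Me1. The 7 of 8 relations passed in every fit without 1 rat and without 1 strain, and without both L-E replicate 4 and H/W replicate 1 they were 4, as Me1 (adjusted p = 0.0760), Scd (0.0711) and Elovl6 (0.113) no longer passed.

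Mlxipl deviations were set against the same genes. Past the 5% FDR were Fasn (r = 0.62, permutation test, adjusted p = 0.0396, rho = 0.61, adjusted p = 0.0226) and Acly (r = 0.48, adjusted p = 0.0327, rho = 0.56, adjusted p = 0.0250), 2 of 8 relations. Gpam had r = 0.59 (permutation, adjusted p = 0.192, rho = 0.59, adjusted p = 0.0432), and Me1, Acaca, Elovl6, Srebf1 and Scd had r of 0.37, 0.37, 0.32, 0.31 and 0.29 with adjusted p from 0.252 to 0.471 and rho of 0.33 to 0.48 with adjusted p from 0.116 to 0.217. These values depended on the ProbeSet. With the second one of each gene, r was 0.49 for Srebf1, 0.46 for Acaca (mostly under the expression limit), 0.15 for Me1 and 0.62 for Fasn. Of all other expressed ProbeSets, 3.39% reached r of 0.5 with Mlxipl and 0.153% reached 0.7, and of the 7 enzymes 2 reached 0.5 and 0 reached 0.7. Thrsp and Mlxipl correlated with r = 0.57 (permutation, adjusted p = 0.0199, rho = 0.71, adjusted p = 0.00554), and with r = 0.56 without the rats farthest in Thrsp. This relation no longer passed without L-E replicate 2, L-E replicate 4 or H/W replicate 4 (adjusted p of up to 0.0735), with deviations from each strain and scan day (r = 0.53, adjusted p = 0.0846), with another choice of ProbeSets (r = 0.47, adjusted p = 0.140), without S-D (r = 0.51) or L-E (r = 0.49), or without both L-E replicate 4 and H/W replicate 1 (r = 0.49, adjusted p = 0.0700).

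Without the rats farthest in Mlxipl, H/W replicates 2 and 4, its r was 0.65 for Fasn, 0.63 for Acly, 0.69 for Srebf1, 0.57 for Acaca, 0.46 for Elovl6, 0.39 for Scd, 0.38 for Me1 and 0.36 for Gpam. With deviations from each strain and scan day, the number of relations past the threshold was 0. There L-E replicate 1 and H/W replicates 1 and 4, each alone of its strain on its day, had deviations of 0 by construction. With deviations from the strain alone, the number rested on single rats. It was 5 without H/W replicate 2, 0 without L-E replicate 2 or 4, H/W replicate 4, Line-A replicate 2 or Line-C replicate 4, and 1 without S-D replicate 3 or 4, L-E replicate 1, Line-A replicate 4 or Line-C replicate 2. Whether r with Thrsp and r with Mlxipl differ was not tested. The log2 difference between 3' and 5' GAPDH probes had r = 0.15 with Thrsp and 0.05 with Mlxipl deviations, and that of beta-actin had r = 0.19 and -0.09.

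**Figure D4:**
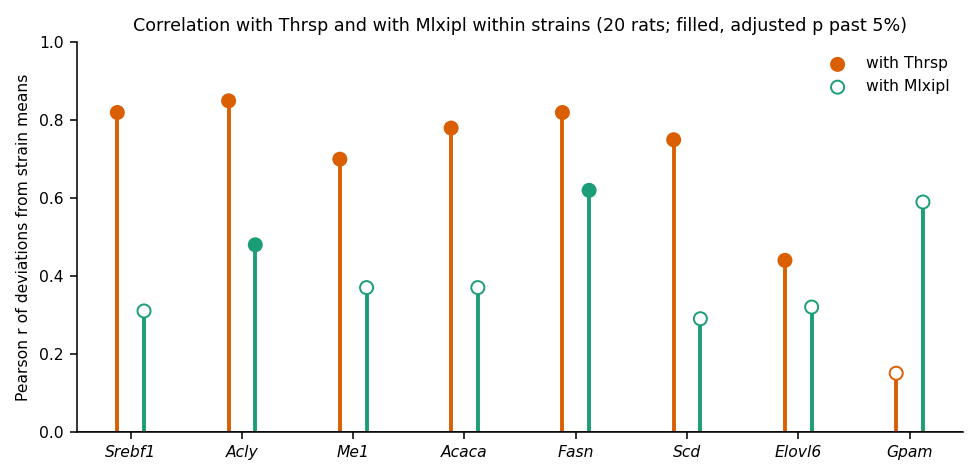
Pearson r of within-strain deviations over 20 rats (y axis) of 8 lipogenesis genes (x axis) with Thrsp (orange) and with Mlxipl (green), with filled points past the 5% threshold after adjustment over 17 relations. With Thrsp, 7 of 8 points are filled, at 0.44 to 0.85, and with Mlxipl 2 of 8, Acly at 0.48 and Fasn at 0.62.

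**Figure D5:**
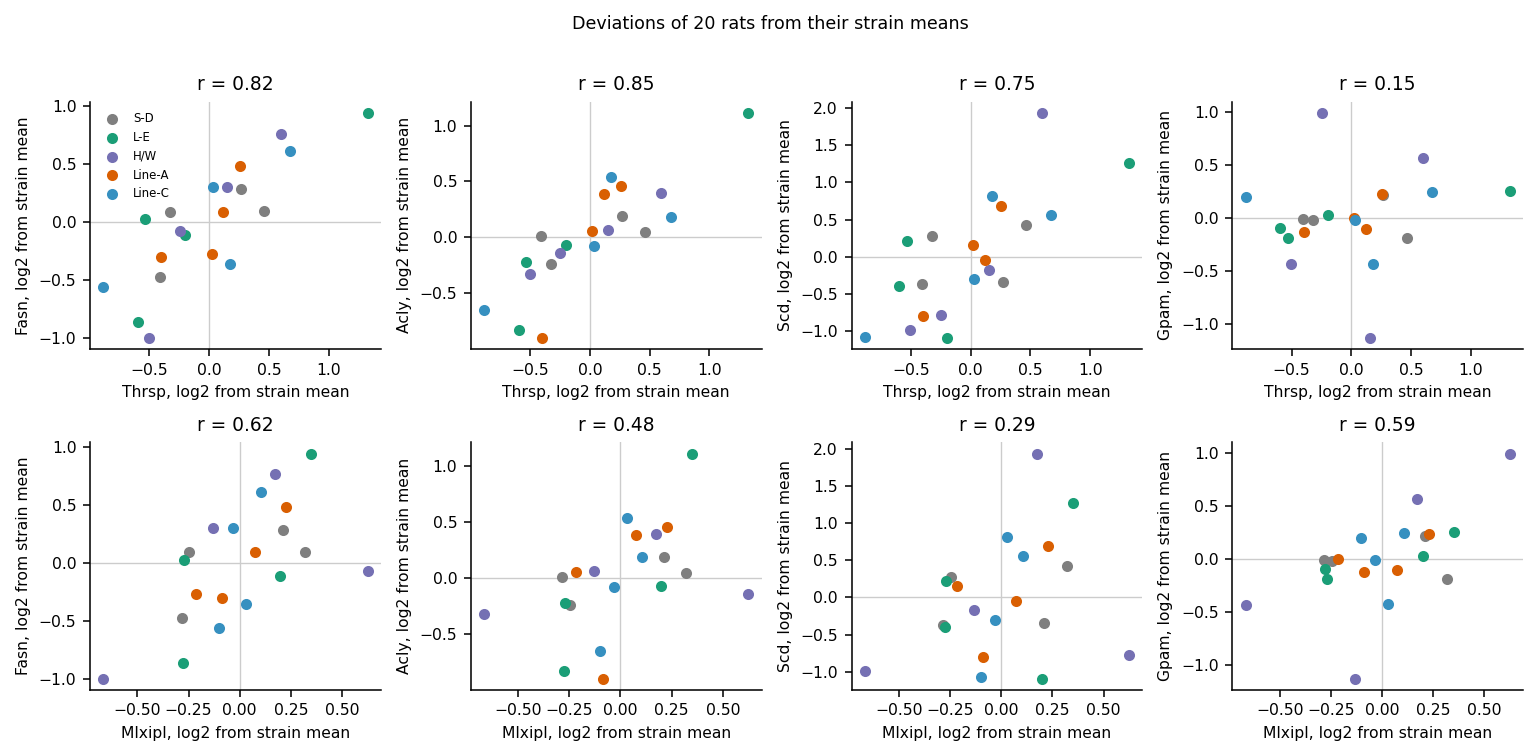
Deviation of each of 20 rats from its strain mean (log2) in Fasn, Acly, Scd and Gpam (y axes) against Thrsp (upper row) and Mlxipl (lower row), coloured by strain or line. Fasn, Acly and Scd rise along Thrsp (r = 0.82, 0.85 and 0.75) and Gpam does not (r = 0.15). Gpam rises along Mlxipl (r = 0.59). H/W rats 1 and 2 are highest and 3 is lowest in Gpam, and H/W rat 4 is lowest in Mlxipl (-0.667, Gpam -0.435).

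The genes outside the pathway whose within-strain deviations were most like those of Thrsp over the 20 rats were Atosa (r = 0.88), Septin9 (0.84), Pklr (0.84), Tkt (0.83) and Tsc22d1 (0.82). Pklr encodes the liver pyruvate kinase of glycolysis, and Tkt is a transketolase of the pentose phosphate pathway. Those most like Mlxipl were Qdpr (r = 0.78), Tubb4b (0.76), Dmgdh (0.75), Prkaca (0.72) and Macroh2a1 (0.72). These values are ranks among expressed genes measured in the same livers and carry no test.

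Of 13 expressed further regulators of lipogenesis, 0 were called between Line-A and Line-C (limma, 5% FDR; 4 had an unadjusted p under 0.05). Against S-D, 1 was higher in Line-A and 2 were lower, against L-E 2 were higher and 3 lower, and against H/W 3 were lower. These are 3, 5 and 3 of 13, where 32.1%, 29.7% and 13.4% of all expressed ProbeSets were called in either direction, and 2.89% between the lines. Mid1ip1, a relative of Thrsp whose product binds acetyl-CoA carboxylase, had means of 10.91 in Line-A, 10.15 in H/W, 10.04 in L-E, 9.92 in Line-C and 9.72 in S-D, and Line-A exceeded S-D by 1.19 ± 0.26 (adjusted p = 0.00515), and L-E by 0.87 ± 0.26 (adjusted p = 0.0267), while its difference from Line-C, 0.98 ± 0.26, did not pass (adjusted p = 0.0783). Scap, which escorts the sterol regulatory element-binding proteins, was lower in Line-A, with a log2 difference of -0.91 from S-D (adjusted p = 0.00584), -0.93 from L-E (adjusted p = 0.00609) and -0.76 from H/W (adjusted p = 0.0310). Srebf2, which controls cholesterol synthesis, had means of 6.93 in Line-A, 7.12 in Line-C, 7.77 in S-D, 7.93 in H/W and 8.34 in L-E. Nr1h3, the liver X receptor alpha, was between 9.80 and 10.27.

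Of 11 expressed genes that supply carbon and NADPH, 0 were called between the lines (limma, 5% FDR; 6 had an unadjusted p under 0.05), and in Line-A 2 were higher and 1 lower than in S-D, 3 higher and 2 lower than in L-E and 1 higher and 1 lower than in H/W. In these comparisons, in the same order, 2.89%, 32.1%, 29.7% and 13.4% of all expressed ProbeSets were called in either direction. Taldo1 (transaldolase) was higher in Line-A than in H/W by 0.93 ± 0.12 (adjusted p = 2.09e-04) and Slc25a1, the mitochondrial citrate carrier, was lower than in L-E, with a difference of -0.60 ± 0.10 (adjusted p = 0.00106). Idh1, a cytosolic source of NADPH, was higher in Line-A than in S-D by 0.34 ± 0.07 (adjusted p = 0.00550), and Acss2, which makes acetyl-CoA from acetate, ranged from 8.96 in S-D to 10.5 in Line-C. The mean of the 12 genes on the array had r = 0.80 with Thrsp deviations over 20 rats.

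Of 19 expressed genes of desaturation, elongation, activation and triglyceride assembly, 1 was called between the lines: Plin2, a lipid droplet protein, was higher in Line-A by 0.41 ± 0.08 (adjusted p = 0.0154). In Line-A 4 were higher and 1 lower than in S-D, 0 higher and 6 lower than in L-E and 1 higher and 2 lower than in H/W. The shares of all expressed ProbeSets called in either direction were 32.1%, 29.7% and 13.4% there, and 2.89% between the lines. Apob, the apolipoprotein of very low-density lipoprotein, was at 13.86 in S-D and at 14.28 to 14.32 in the other groups, and Fabp1, the liver fatty acid-binding protein, at 15.14 in S-D and 15.29 to 15.53 in the others. Acsl1, an acyl-CoA synthetase, was higher in Line-A than in S-D by 0.29 ± 0.05 (adjusted p = 0.00163). The mean of the 22 genes on the array had r = 0.03 with Thrsp deviations.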

How the data were processed

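Each of 20 RAE230A arrays held the liver RNA of 1 rat, and the labels gave 5 groups of 4. The authors made the deposited log2 signals with GC-RMA, which corrects the background by probe sequence, quantile-normalizes the arrays and summarises each ProbeSet. The submitters' processing notes name R 2.6.1, affy 1.12.0 and GCRMA 2.10.0. Quantile normalization can shrink differences that most ProbeSets share. No array was a copy of another. Array header files were used only for scan day, chip lot and operator, 5, 4 and 2 in number.

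The members and all gene lists were chosen with earlier results of these data known. The ProbeSets were named by GEO's platform annotation. Models were fitted to all 15923 ProbeSets in R 4.3.3 with limma 3.58.1 (statmod 1.5.0 for random blocks), 1 mean per strain or line, two-sided, with Benjamini-Hochberg adjustment over all ProbeSets at 5% FDR, and at 0.1% FDR for the F-test. Counts with an unadjusted p under 0.05 were not set against all ProbeSets, so they give no result about the members or lists. The Ahr coefficient came from the study's model with S-D, L-E and H/W shares (0.5 each in the lines) and an Ahr term. Within-strain relations were tested two-sided in Python with 100000 shuffles of rats within strains. From lists on regulators, carbon and NADPH supply, lipid assembly, feeding and fasting, clock, thyroid hormone response and cell types (hepatocyte zones, adipocyte, Kupffer, stellate, endothelial and erythroid cells), up to 4 expressed genes with the smallest F-test p could be named, and Cpt1a was named outside this rule after its values had been seen. For each of Thrsp and Mlxipl, the 5 other expressed genes of highest within-strain r were named. The number of arrays limits the precision, and the steps were tested on simulated data.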

Additional observations from a re-analysis of the deposited data

Results flagged for a closer look

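Of 80 groups of 4 rats (16 ProbeSets in 5 groups), 7 had 1 rat far from the other 3 by Dixon's criterion, where chance gives about 4 (1 in 20). L-E replicate 4 stood apart in Thrsp 1387852_at (12.48, the next rat at 10.89), Me1 1370870_at (8.60, next 6.81) and Acaca 1387538_at (4.18, next 2.59). H/W replicate 1 stood apart in Elovl6 (6.35, next 3.02) and Acaca 1387538_at (3.80, next 2.43), both ProbeSets that were mostly under the expression limit of 4. Line-A replicate 1 was low in Me1 1370870_at (5.34, next 7.90), and Line-C replicate 4 was low in Acaca 1370893_at (9.17, next 9.75).

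The variant against wild-type Ahr contrast differed between the parental strains and the lines in 2 of 16 ProbeSets by limma's test of the difference itself, against 2.01% of all. It was -2.43 (log2, H/W minus L-E less Line-A minus Line-C) for Thrsp 1387852_at and -1.33 for Mlxipl, both with an adjusted p of 0.0369. For Thrsp, Line-A exceeded Line-C by 2.26 and H/W lay -0.17 from L-E. For Mlxipl, Line-A exceeded Line-C by 0.39 and H/W lay -0.94 from L-E. The other ProbeSets of Thrsp did not pass (limma, adjusted p = 0.0547 for 1370150_a_at and 0.0727 for 1371400_at). Leaving out 1 rat gave 0 to 3 called ProbeSets.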

How the results depend on the processing

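Numbers here are lipogenesis ProbeSets of 16 past the threshold unless stated. Shares of all ProbeSets called are given for the pairs with scan day as a random block. They are not given for the F-test, the Ahr coefficient, the difference of contrasts or the classes outside the parents under that block, nor for the other settings. For those it cannot be told whether the members moved more than all ProbeSets did. With array weights they were 9 for Line-A against H/W, 3 for L-E against H/W, 4 for L-E against Line-C, 5 for H/W against S-D, 3 for Line-C against S-D, 11 for the F-test, 9 for the difference of Ahr contrasts, 6 for the Ahr coefficient and 8 for Line-A above both parents. With limma's trend the F-test gave 4. Quantile normalization gave 1 for L-E against Line-C, 0 for H/W against Line-C and 0 for Line-C below both parents. Equal array medians gave 3, 1 and 0 for Line-A against H/W, L-E against Line-C and H/W against Line-C, 3 for Line-A above and 0 for Line-C below both parents. Testing only ProbeSets with a mean of at least 4 gave 9, 2 and 5 for Line-A against H/W, L-E against H/W and H/W against S-D, 6 for the F-test, 5 for the difference of contrasts and 8 for Line-A above both parents. At 1% FDR, Line-A against L-E, H/W and Line-C gave 5, 0 and 1, L-E against S-D, H/W and Line-C gave 1, 0 and 1, H/W against Line-C 0, the difference of contrasts 0, the Ahr coefficient 0 and Line-A above and Line-C below both parents 0 each, and the F-test at 5% FDR gave 12. With a replicate block, Line-A against H/W gave 1 and against Line-C 3, L-E against Line-C 1, the difference of contrasts 1 and Line-A above both parents 1, and no other number moved by over 1.5 times. The labels do not say whether the replicate numbers pair the rats. Of 40 same-numbered pairs 6 correlated over 0.1 (range -0.34 to 0.22), which cannot settle this. With scan day as a random block, Line-A against S-D, L-E and H/W gave 6, 5 and 0, L-E against S-D and Line-C 1 each, H/W against S-D 1 and against Line-C 0, the F-test 0, the Ahr coefficient 5 and both classes outside the parents 0. In these pairs, in this order, 4.54%, 4.33%, 2.52%, 4.52%, 2.69%, 3.01% and 1.38% of all ProbeSets were called. L-E against H/W stayed at 1 with scan day as a random block, where 3.49% of all ProbeSets were called. It gave 0 with only the 8 arrays of the pair and 0 on the shared scan day with most arrays. It also gave 0 with scan day as a fixed block, an alternative chosen after seeing the data. Without L-E replicate 4 and H/W replicate 1, also chosen after seeing the data, Line-A against H/W gave 9, L-E against H/W 0, H/W against Line-C 0, the F-test 7, Line-A above both parents 8 and Line-C below 0. Leaving out 1 rat gave 8 to 12 for Line-A against S-D, 5 to 10 against L-E, 0 to 7 against H/W and 3 to 6 against Line-C, 3 to 6 for L-E against S-D, 0 to 3 against H/W and 1 to 3 against Line-C, 2 to 5 for H/W against S-D and 0 to 1 against Line-C, 0 to 2 for Line-C against S-D, 1 to 5 for the F-test, 0 to 3 for the difference of contrasts, 0 to 4 for the Ahr coefficient, 0 to 7 for Line-A above and 0 to 1 for Line-C below both parents. Genes co-varying with Thrsp, of 8, were 7 under every alternative but that without both rats, with 4. Those with Mlxipl were 1 after quantile normalization, 0 centred by strain and scan day, 1 with other ProbeSets, 0 without S-D, L-E, Line-A or Line-C, 5 without H/W, 0 without both rats and 0 to 5 without 1 rat. The cause was not tested for any of these. Of 427 values of 45 named differences and correlations under alternatives other than leaving out 1 rat, 349 kept direction and side of the threshold, 71 lost it, 7 gained it and 0 changed direction.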

Other observations

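Of 8 expressed genes of the feeding and fasting response, 2 were higher and 3 lower in Line-A than in S-D, 4 lower than in L-E, and 0 were called against H/W or Line-C (limma, 5% FDR), where 1 and 4 had an unadjusted p under 0.05. The shares of all expressed ProbeSets called in either direction were 32.1%, 29.7%, 13.4% and 2.89% against S-D, L-E, H/W and Line-C. Irs2, an insulin receptor substrate that rises in fasting, was lower in Line-A than in L-E, with a log2 difference of -1.16 ± 0.25 (adjusted p = 0.00592), and Igfbp1, which insulin represses, had means of 3.57 in Line-A and 3.90 in H/W, both under the expression limit, 5.64 in Line-C, 5.80 in S-D and 6.22 in L-E. Pdk4, which spares pyruvate from oxidation, was at 7.63 in L-E, 7.1 in Line-A and 6.07 in S-D. It was 1 of the 2 genes higher in Line-A than in S-D (1.03 ± 0.29, limma, adjusted p = 0.0247). Txnip, which responds to glucose, was at 8.62 in S-D and 7.90 in Line-C. Cpt1a, the gate of mitochondrial fatty acid oxidation, had r = -0.74 with Thrsp deviations over 20 rats, and the mean of the 10 genes on the array r = -0.65. Cpt1a was named after its values had been seen, and neither r was tested. Of the 7167 other expressed ProbeSets, 2.82% had r of at most -0.5 with Thrsp.

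Of 7 expressed clock genes, Bhlhe40, a transcriptional repressor of the clock, was called in Line-A against S-D, L-E and H/W, with means of 7.67 in Line-A, 6.08 in L-E, 5.55 in Line-C, 5.39 in S-D and 4.82 in H/W, and the mean of the list had r = 0.39 with Thrsp deviations. Of the 3 expressed genes of the thyroid hormone list, Mid1ip1 was called in Line-A against S-D and L-E, and Dio1, which deiodinates thyroxine, was between 5.41 and 5.72 in all groups. Of 4 expressed pericentral markers 1 was higher in Line-A than in S-D and 2 were lower than in L-E, and of 5 periportal markers 1 was lower than in S-D, while 1 was higher and 2 lower than in L-E and 1 was higher than in H/W. For the clock, thyroid and zone lists, the shares of all expressed ProbeSets called in either direction were 32.1% (S-D), 29.7% (L-E) and 13.4% (H/W). The 2 expressed erythroid markers had 0 calls in Line-A against S-D, L-E, H/W and Line-C by limma at 5% FDR, with an unadjusted p under 0.05 for 1 against S-D, and the 1 expressed endothelium marker, Lyve1, was at 8.24 in S-D and 7.35 to 7.60 in the other groups.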
